A study of Mus musculus with 12 samples.

Results

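CatSper is the calcium channel of the sperm flagellum, and its subunit genes were followed here in mouse round spermatids, the haploid cells that have finished meiosis and have not yet elongated. The 9 genes were taken by name from the deposited expression table, which held 28643 usable gene symbols: Catsper1, Catsper2, Catsper3 and Catsper4, which encode the pore, Catsperb, Catsperd, Catsperg1 and Catsperg2, which encode auxiliary subunits, and Efcab9, which encodes a calcium-binding subunit. All 9 were present in all 12 libraries.

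The cells came from 8-week-old male mice that were either Igf2bp3+/-, the control group, or Igf2bp3-/-, which lack IGF2BP3, an RNA-binding protein that recognises N6-methyladenosine on mRNA. Each genotype was measured by RNA-seq of the input RNA and by RNC-seq, sequencing of mRNA recovered from the polysome fractions of a sucrose gradient with at least 4 ribosomes, with 3 libraries in each of the 4 groups. Both genotypes carry a Cas9-made frameshift allele in exon 6 of Igf2bp3, the controls on a single copy only, so neither group is wild type. Knockout males were partly bred from subfertile Igf2bp3-/- fathers and need not be littermates of the controls, and all cells met cycloheximide, which holds ribosomes on mRNA, during sorting. The paper states that knockout males with impaired fertility were chosen for the experiments that include these libraries. The knockout group is therefore a selected part of the knockouts. By the methods the input and the polysome RNA of a mouse came from one cell extract, but the labels do not say which numbered libraries share a mouse, so the fits left the libraries unpaired. The p-values below measure the spread between these libraries.

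The channel opens when the flagellum becomes alkaline, and in mouse the calcium that enters drives hyperactivated swimming; males that lack any of the pore subunits are infertile. The pore is built from 4 different proteins, each with its own pore loop. The beta, gamma, delta and epsilon subunits form a large extracellular canopy over it, while EFCAB9, together with CATSPERZ, sits on the cytoplasmic side and couples the channel to pH and calcium. In rodents the gamma subunit has a pair of genes, Catsperg1 and Catsperg2. The genes are transcribed in the testis, before the tail in which the channel works is complete.

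The pore loop is what separates the Catsper1 to Catsper4 genes from the other members in their own coding sequence, so it is shown first. The following coding stretches were read from GENCODE M21 transcripts on GRCm38, 5′ to 3′, with the codons for threonine, any residue, aspartate, any residue and tryptophan in capitals, a pattern found at the mouth of calcium-selective pores.
Catsper1, coding bases 1585 to 1629: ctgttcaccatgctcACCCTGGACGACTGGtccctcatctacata
Catsper2, coding bases 862 to 906: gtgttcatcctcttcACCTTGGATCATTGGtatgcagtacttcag
Catsper3, coding bases 658 to 702: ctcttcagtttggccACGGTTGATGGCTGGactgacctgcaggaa
Catsper4, coding bases 688 to 732: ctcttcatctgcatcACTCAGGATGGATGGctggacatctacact
Each of these 4 genes held the in-frame pattern once, the other 5 members did not hold it, and 1.75% of 21950 coding genes held it (384 genes).

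Catsperg1 and Catsperg2 are near-identical copies, and a stretch where they can be told apart is shown because their separate levels rest on such places. Capitals mark the bases that differ, counted from 1 at the start codon.
Catsperg1, coding bases 1652 to 1711: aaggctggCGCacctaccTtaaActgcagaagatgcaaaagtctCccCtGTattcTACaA
Catsperg2, coding bases 1652 to 1711: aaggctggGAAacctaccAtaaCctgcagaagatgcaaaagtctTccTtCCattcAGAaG
This window of 60 bases holds 13 differences. Over 3432 aligned coding bases the pair were 96.4% identical, with 122 mismatches, and 22.7% of the 100-base windows of Catsperg1 occurred unchanged in Catsperg2. How the authors' quantification divided reads between them is not stated, so their separate levels are uncertain. Catsperb has a pseudogene copy, Gm18795, which matched 82.9% of its transcript at 89.3% identity, and 18 exonic bases of Catsper2 (0.487%) overlap Pdia3 on the opposite strand; none of the other members' exons overlap another gene.

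The cells carried the marker genes of round spermatids in all libraries. The summed level of 5 such markers (Acrv1, Spaca1, Acr, Izumo1 and Tssk1) was 641 to 751 FPKM (fragments per kilobase of transcript scaled to the library's total, a level corrected for transcript length) in the Igf2bp3+/- RNA-seq libraries and 836 to 973 in the Igf2bp3-/- ones. Markers of spermatocytes (5 genes) summed to 70.6 to 199 FPKM over the 12 libraries. Those of spermatogonia (4 genes), peritubular cells (2 genes) and Sertoli cells (4 genes in the table) summed to at most 1.79, 1.24 and 0.861. The list for elongating spermatids (4 genes: Tnp1, Tnp2, Prm1 and Prm2) summed to 8040 to 20800. The paper measured the mRNAs of this list in sorted round spermatids as well. Its sum therefore does not separate elongating from round spermatids. Leydig cell markers (5 genes) stood apart by genotype, at 14.5 to 21.5 FPKM against 46.1 to 52.4 in RNA-seq and 6.12 to 13.9 against 50.3 to 100 in RNC-seq, as did the sum of macrophage markers (3 genes) at 0.791 to 1.17 against 2.39 to 2.6 in RNA-seq and 0.258 to 0.524 against 1.45 to 2.52 in RNC-seq. Of these 3 genes only Cd74 stood apart in RNA-seq (0.276 to 0.519 against 1.63 to 1.83 FPKM). Csf1r and Adgre1 overlapped between genotypes there and stood apart in RNC-seq. Low sums also stood apart for spermatogonia in RNA-seq (1.42 to 1.79 FPKM in the control against 1.24 to 1.27). So did those for peritubular cells in RNC-seq (0.727 to 0.818 against 1.06 to 1.24). Of their genes only Stra8 and Acta2 did so, and in the other assay both sums overlapped. No gene of these lists was at 0 in a whole group. Igf2bp3 transcripts were at 33.4 to 38.6 FPKM in the control and 31.4 to 32.5 in the knockout RNA-seq libraries (log2 change -0.20 ± 0.09 SE, limma adjusted p = 0.335); a frameshift need not remove the transcript, so this level does not check the genotypes. Among the Igf2bp3+/- RNC-seq libraries replicate 2 stood low, with the lowest level for 8 of the 9 members.

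All 9 transcripts were expressed, over a 12.0-fold range of means in control RNA-seq. Catsper2, on chromosome 2 (121392631 to 121413792, minus strand), was the most abundant, at 187, 230 and 210 FPKM (mean 209 ± 21.5 SD, n = 3). Efcab9, on chromosome 11 (32522751 to 32532081, minus strand), followed at 200, 194 and 136 FPKM (176.5 ± 35.6). The libraries of these 2 genes overlapped, so their order is not resolved.

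Catsper3, on chromosome 13 (55784568 to 55808998, plus strand), came next at 63.4, 66.7 and 60 FPKM (63.4 ± 3.36), above every library of Catsperd. Catsperd, on chromosome 17 (56628143 to 56664456, plus strand), was at 53.6, 58.3 and 57.3 FPKM (56.4 ± 2.50), and Catsper4, on chromosome 4 (134211970 to 134227383, minus strand), at 54.1, 50.8 and 47.2 (50.7 ± 3.47). Those 2 overlapped. The next canopy genes lay lower: Catsperg2, on chromosome 7 (29697219 to 29727032, minus strand), at 40.2, 38.0 and 43.6 FPKM (40.6 ± 2.81), and Catsperb, on chromosome 12 (101404653 to 101626009, plus strand), at 26.7, 27.0 and 24.1 (25.9 ± 1.58).

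At the bottom stood Catsperg1, on chromosome 7 (29181321 to 29214035, minus strand), with 19.1, 19.2 and 17.9 FPKM (18.7 ± 0.73), and Catsper1, on chromosome 19 (5335741 to 5344280, plus strand), with 16.8, 18.6 and 16.7 FPKM (17.4 ± 1.03), which overlapped. The lowest pore transcript and the highest thus belonged to proteins that join the same channel. In total 3 of the 8 neighbouring pairs in this order overlapped. Gm18795, the Catsperb copy, was at 0.767 to 2.29 FPKM over the 12 libraries.

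**Figure D1:**
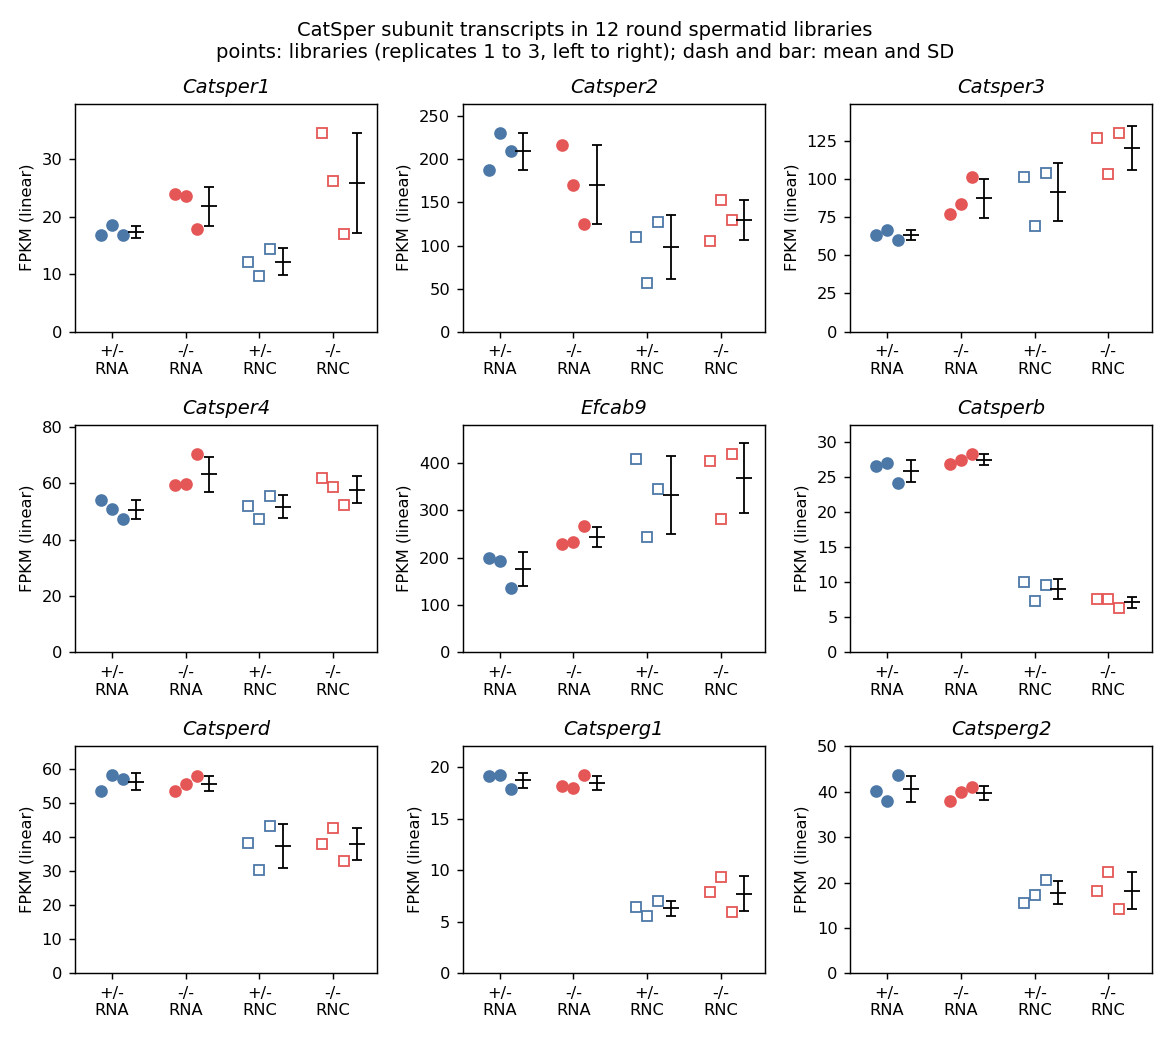
FPKM (linear axis from 0) of the 9 genes in the 12 libraries, with RNA-seq as filled circles, RNC-seq as open squares, Igf2bp3+/- in blue and Igf2bp3-/- in red; dash and bar give mean and SD of 3 libraries. The canopy genes Catsperb, Catsperd, Catsperg1 and Catsperg2 drop from RNA-seq to RNC-seq in both genotypes with no overlap. So did 32.9% of all genes in Igf2bp3+/- and 21.5% in Igf2bp3-/-. Efcab9 lies higher in RNC-seq, and the red points of Catsper3, Catsper4 and Efcab9 lie above the blue ones in RNA-seq.

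Polysome loading, the log2 RNC-seq level minus the log2 RNA-seq level, asks how each transcript is divided between the whole cell and the heavy polysomes. In the control spermatids the channel did not load as a unit: Efcab9 and Catsper3 were higher on polysomes than in the input, Catsper4 was even, and Catsper1, Catsper2, Catsperb, Catsperd, Catsperg1 and Catsperg2 were lower. By limma, 8 of the 9 genes passed an adjusted p of 0.05, 2 higher and 6 lower, in a comparison where 43.4% of all 18414 genes tested did (18.2% higher and 25.2% lower). The median loading of the members was -0.605, beside -0.10 over all genes tested. FPKM is relative within a library, so a loading of 0 is the level at which a gene holds its share, and not an absolute amount of ribosomes.

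The lowest loadings were those of Catsperg1, Catsperb and Catsperg2, with the pore gene Catsper2 next to Catsperg2. Catsperg1 fell from 18.7 ± 0.73 FPKM in RNA-seq to 6.41, 5.55 and 6.98 FPKM in RNC-seq (6.31 ± 0.72), a loading of -1.56 ± 0.14 (SE; limma adjusted p = 0.000132). Catsperb was at 10.1, 7.38 and 9.57 FPKM on polysomes (9.02 ± 1.45), a loading of -1.52 ± 0.15 (adjusted p = 0.000209). Catsperg2, at 15.5, 17.2 and 20.6 FPKM (17.75 ± 2.58), had a loading of -1.20 ± 0.14 (adjusted p = 0.000385). The polysome libraries of each lay below all of its input libraries, as for 32.9% of all genes, and the ratios of the means were 0.337, 0.348 and 0.437. Catsperd fell less, to 38.3, 30.5 and 43.4 FPKM (37.4 ± 6.47; loading -0.605 ± 0.15, adjusted p = 0.0108).

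The pore transcripts split. Catsper2 had 110, 56.8 and 127.5 FPKM on polysomes (98.1 ± 36.8), with a loading of -1.17 ± 0.27 (limma adjusted p = 0.0089), so that it was no longer separable from Catsper3 there. The Catsper2 loading ran from -1.39 to -0.74 when each replicate was left out in turn. Catsper3 had 101.5, 69.3 and 104 FPKM (91.55 ± 19.3) and a loading of 0.51 ± 0.17 (adjusted p = 0.0373). Catsper1 was at 12.2, 9.75 and 14.4 FPKM (12.1 ± 2.35; loading -0.53 ± 0.16, adjusted p = 0.0299). Catsper4, at 52.1, 47.4 and 55.6 FPKM (51.7 ± 4.12), overlapped its input values, with a loading of 0.03 ± 0.12 (adjusted p = 0.877). Efcab9 led all members on polysomes, at 409, 244 and 344.5 FPKM (332 ± 82.9), with a loading of 0.90 ± 0.22 (adjusted p = 0.01055). The range of the member means was 12.0-fold in RNA-seq and 52.6-fold in RNC-seq. Without replicate 1 of both assays 4 of the 9 genes passed, and without replicate 2 or without replicate 3 it was 6; Catsper2, Catsperb, Catsperg1 and Catsperg2 passed in every one of these fits. Centring every library on its median moved the median loading of all genes by 0.17, to 0.07, and Catsper1 then did not pass (-0.36, adjusted p = 0.0732 in limma).

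In the Igf2bp3-/- spermatids the same canopy genes lay low. Catsperb had 7.63, 7.57 and 6.27 FPKM in RNC-seq (7.16 ± 0.77) against 26.8, 27.5 and 28.3 in RNA-seq (27.5 ± 0.73), a loading of -1.93 ± 0.16 (limma adjusted p = 0.00112). Catsperg1 had 7.92, 9.33 and 5.95 FPKM on polysomes and 18.2, 17.9 and 19.2 in the input (loading -1.265 ± 0.20, adjusted p = 0.00449). For Catsperg2 the polysome values were 18.2, 22.4 and 14.1 FPKM and the input values 38.0, 40.0 and 41.1 (loading -1.14 ± 0.19, adjusted p = 0.00576).

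With Catsperd (loading -0.56 ± 0.16, limma adjusted p = 0.0355), 4 of the 9 genes passed, all lower, where 21.1% of all genes passed (10.2% higher and 11% lower). Catsperd did not pass with the replicate number as a block (adjusted p = 0.0653 in limma). Efcab9 (0.58 ± 0.19, adjusted p = 0.0561) and Catsper3 (0.46 ± 0.17, adjusted p = 0.0865) did not pass, although all polysome libraries of each lay above its input libraries, as for 19.2% of all genes. Loadings of Catsper1 (0.20 ± 0.26), Catsper2 (-0.38 ± 0.23) and Catsper4 (-0.13 ± 0.16) had overlapping libraries. When replicate 1, or replicate 3, of both assays was left out none of the 9 passed, when over all genes 4 passed in either fit, and without replicate 2 it was 5 of the 9.

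**Figure D2:**
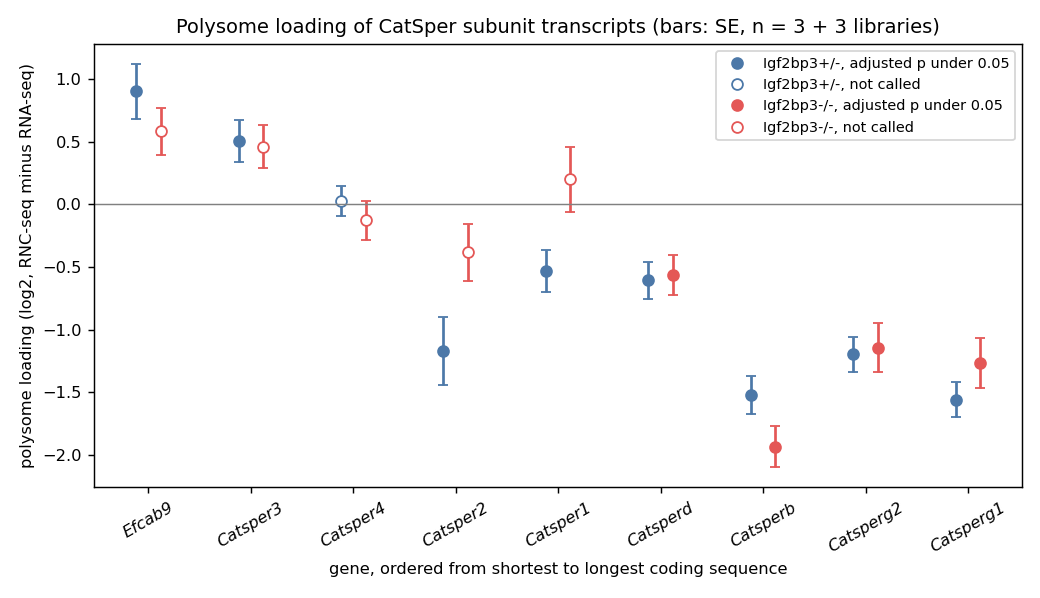
Polysome loading (log2 RNC-seq minus log2 RNA-seq) of each gene, ordered by coding length, in Igf2bp3+/- (blue) and Igf2bp3-/- (red); filled points passed an adjusted p of 0.05 in limma and bars are SE from 3 + 3 libraries. Values run from 0.90 for Efcab9 down to -1.56 for Catsperg1 in the control and from 0.58 down to -1.93 for Catsperb in the knockout.

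Over the whole table the median loading was lower for genes with longer coding sequences. In control spermatids the median loading was 0.52 for 1932 coding genes of up to 600 bases and -1.12 for 1675 genes above 3000 bases, and in the knockout it was 0.43 and -0.68. Efcab9 has 648 coding bases, Catsper3 1185, Catsper4 1326, Catsper2 1764, Catsper1 2058, Catsperd 2415, Catsperb 3327, Catsperg2 3435 and Catsperg1 3453. Not every member lay near the median of its length: Catsper2 in the control (-1.17) was below the -0.25 of genes above 1200 and up to 1800 bases, and Catsper1 in the knockout (0.20) was above the -0.34 of genes above 1800 and up to 2400 bases. The 3 longest members had the lowest loadings in the knockout, while in the control Catsperg2 (-1.20 ± 0.14) and Catsper2 (-1.17 ± 0.27) could not be ordered.

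Because of this, the trend of log2 FPKM against log2 coding length was removed from every library and the fit repeated, a step chosen after the values were seen. The mean of each library was kept, so the loadings below were tested against 0 and do not measure the distance from the length trend. In the control 6 members still passed in limma, 2 higher and 4 lower, where 11.7% of 12858 coding genes passed higher and 30.6% lower. Higher were Efcab9 (0.49, adjusted p = 0.0431) and Catsper3 (0.44, adjusted p = 0.0384). Lower were Catsper2 (-1.02, adjusted p = 0.00886), Catsperg1 (-0.91, adjusted p = 0.000706), Catsperb (-0.91, adjusted p = 0.00188) and Catsperg2 (-0.555, adjusted p = 0.00305). Catsper1 (-0.28, adjusted p = 0.158) and Catsperd (-0.24, adjusted p = 0.167) no longer did. In the knockout Catsperb (-1.51, adjusted p = 0.00124), Catsperg1 (-0.83, adjusted p = 0.00856) and Catsperg2 (-0.71, adjusted p = 0.0127) passed lower, as did 11.8% of the coding genes, and Catsperd did not (-0.29, adjusted p = 0.167). Whether length acts through the polysomes, the gradient or the library preparation was not tested.

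**Figure D3:**
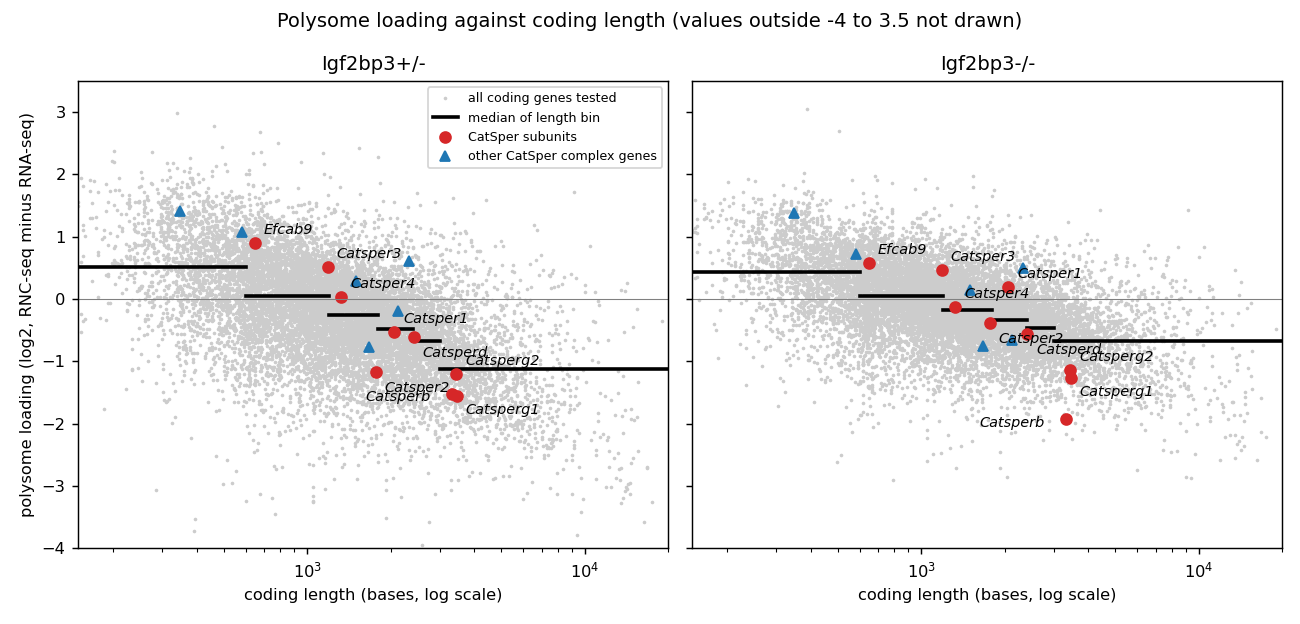
Polysome loading (log2) against coding length (bases, log axis) for all coding genes tested (grey), the 9 CatSper subunit genes (red, named) and other genes of the complex (blue triangles), in Igf2bp3+/- (left) and Igf2bp3-/- (right); black lines are medians of length bins. The medians of the grey points fall with length. In the control Catsperb, Catsperg1 and Catsper2 lie below the line of their bin, and Catsperg2 and Catsper1 lie slightly below theirs.

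The genotype comparison asks whether loss of IGF2BP3 changed these transcripts. In RNA-seq none of the 9 passed an adjusted p of 0.05 in limma, where 0.256% of 20352 genes did, while 4 had an unadjusted p under 0.05, all of them higher in Igf2bp3-/- (10.4% of all genes). Catsper3 was at 63.4 ± 3.36 FPKM in the control and at 77.2, 83.5 and 101.5 FPKM (87.4 ± 12.6) in the knockout, every knockout library above every control, and the log2 change was 0.45 ± 0.11 (adjusted p = 0.167). Efcab9 was at 229, 233 and 267 FPKM (243 ± 21) against 200, 194 and 136 in the control, also without overlap (0.48 ± 0.15, adjusted p = 0.216, and 0.30 without control replicate 3). So was Catsper4, at 59.3, 59.8 and 70.3 FPKM (63.15 ± 6.18) against 54.1, 50.8 and 47.2 (0.31 ± 0.10, adjusted p = 0.220). Groups that did not overlap, higher in the knockout, were seen for 3 of the 9 members and for 14.1% of all genes.

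Catsper1 was at 24.0, 23.6 and 17.9 FPKM in the knockout input (21.8 ± 3.43), where the lowest library lay within the control range (log2 change 0.32 ± 0.13, limma adjusted p = 0.299). Catsper2 pointed the other way, at 216.5, 170.4 and 125 FPKM (171 ± 45.7; -0.32 ± 0.18, adjusted p = 0.422), and overlapped the control. Its change was -0.12 without Igf2bp3-/- replicate 3 and -0.51 without Igf2bp3-/- replicate 1. The canopy genes differed least between genotypes, with log2 changes of 0.09 ± 0.09 for Catsperb, -0.01 ± 0.08 for Catsperd, -0.02 ± 0.09 for Catsperg1 and -0.03 ± 0.09 for Catsperg2. The median change of the members was 0.09, beside 0.05 over all genes tested.

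The RNA-seq changes over all genes also followed length, with a median log2 change of 0.19 for coding genes of up to 600 bases and -0.13 above 3000 bases. With the length trend removed, the changes were 0.44 for Catsper3 (limma adjusted p = 0.0609), 0.39 for Efcab9 (0.108), 0.31 for Catsper4 (0.113) and 0.37 for Catsper1 (0.136). Round spermatid markers and Leydig cell markers, whose ranges are given above, were higher in the same Igf2bp3-/- libraries, and their part in these differences was not tested. In bulk samples fewer cells of a type and less RNA in each cell cannot be told apart.

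On polysomes Catsper1 stood out among the members. Its RNC-seq level was 12.2, 9.75 and 14.4 FPKM in the control (12.1 ± 2.35) and 34.5, 26.15 and 17.0 FPKM in the knockout (25.9 ± 8.76), so that all 3 knockout libraries lay above all 3 controls, the nearest pair being 17.0 and 14.4. The log2 change was 1.05 ± 0.28, with an unadjusted p of 0.00265 and an adjusted p of 0.543 over 19051 genes (limma), and it lay between 0.81 and 1.32 when each library was left out in turn. None of the 9 members passed, beside 0.115% of all genes. Catsper1 was the single member with an unadjusted p under 0.05 (5.36% of all genes, higher) and the single one whose groups did not overlap (9.44% of all genes, higher).

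The other pore transcripts overlapped between genotypes on polysomes. Catsper2 was at 106, 152.5 and 129.6 FPKM in the knockout (129 ± 23.4; log2 change 0.46 ± 0.29, limma adjusted p = 0.816), and the change was 0.11 without control replicate 2. Catsper3 was at 127, 104 and 130 FPKM (120 ± 14.5; 0.41 ± 0.22, adjusted p = 0.796), with a change of 0.22 without control replicate 2, and Catsper4 at 62.0, 58.8 and 52.4 (57.8 ± 4.88; 0.16 ± 0.19, adjusted p = 0.898). Efcab9, at 404, 283 and 418.5 FPKM (368.5 ± 74.7), had a change of 0.16 ± 0.24 (adjusted p = 0.925), which was -0.05 without control replicate 2. Among the canopy genes Catsperb was the lone member below 0 (-0.32 ± 0.23, adjusted p = 0.831), and Catsperd (38.1, 42.8 and 33.2 FPKM in the knockout), Catsperg1 and Catsperg2 changed by 0.03 ± 0.21, 0.27 ± 0.24 and 0.02 ± 0.23.

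In all, 8 of the 9 changes were above 0, where 65.3% of all genes were, and the median of all genes was 0.13. Centring every library on its median moved that all-gene median by -0.12, after which Catsperd (-0.09) and Catsperg2 (-0.10) were below 0 as well and Catsper1 was at 0.93. The median RNC-seq change also rose with coding length, from 0.105 for coding genes of up to 600 bases to 0.264 above 3000 bases. Each RNC-seq change above is therefore best read against the median of its length and not against 0. Among the members above 3000 bases, Catsperg1 (0.27) lay near that median, and Catsperb (-0.32) and Catsperg2 (0.02) lay below it.

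Translational efficiency (TE) was taken as RNC-seq over RNA-seq, and its genotype difference as the change on polysomes minus the change in the input. None of the 9 members passed in limma, where 1 of 18414 genes did (0.00543%). Catsper2 (log2 difference 0.79 ± 0.38, adjusted p = 0.708) and Catsper1 (0.73 ± 0.33, adjusted p = 0.693) had the highest values of the members. For Catsper2 the ratio of group means was 0.469 in the control and 0.757 in the knockout, and for Catsper1 it was 0.698 and 1.19. Catsper1 alone had an unadjusted p under 0.05 (0.0419), as did 5.54% of all genes on the higher side. Without control RNC-seq replicate 2 the differences were 0.44 for Catsper2, 0.58 for Catsper1, -0.23 for Catsper3 and -0.53 for Efcab9.

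At the other end Catsperb had a TE difference of -0.41 ± 0.22 (limma adjusted p = 0.715) and Efcab9 of -0.32 ± 0.30 (adjusted p = 0.807). The remaining 5 lay between -0.15 (Catsper4) and 0.29 (Catsperg1), with SE of 0.19 to 0.24. Over all coding genes the median TE difference was -0.11 up to 600 bases and 0.40 above 3000 bases, and with the length trend removed the difference was 0.08 for Catsperg1, -0.17 for Efcab9 and -0.61 for Catsperb. A loading that passed in one genotype and not in the other, as for Catsper1, Catsper2, Catsper3 and Efcab9, is thus not shown to differ between genotypes.

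**Figure D4:**
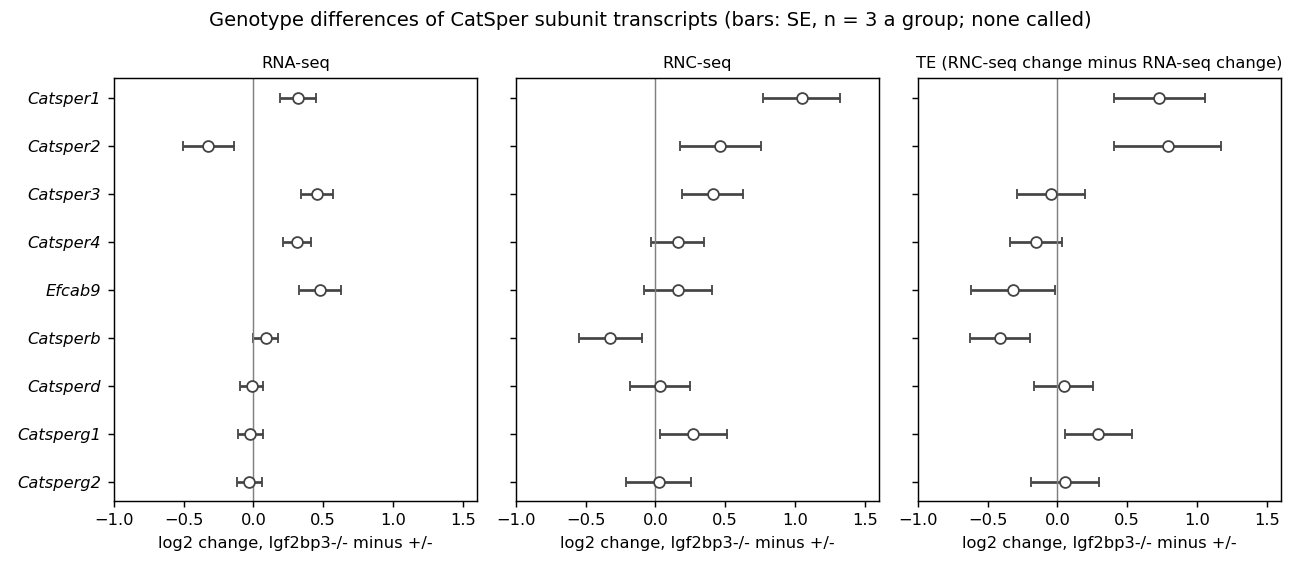
Log2 change from Igf2bp3+/- to Igf2bp3-/- of the 9 genes in RNA-seq, RNC-seq and TE, with SE from 3 libraries a group; open points mark that none passed an adjusted p of 0.05 in limma. Catsper3 (0.45) and Efcab9 (0.48) lie farthest to the right in RNA-seq, Catsper1 (1.05) in RNC-seq, and Catsper1 and Catsper2 (0.73 and 0.79) in TE.

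The 4 pore proteins join one channel, so their transcripts were also set against each other within each library, as shares of their summed FPKM. In control RNA-seq Catsper2 held 61.3 ± 2.69% (SD, n = 3), Catsper3 18.6 ± 0.95%, Catsper4 14.9 ± 1.64% and Catsper1 5.10 ± 0.12%. On control polysomes the share of Catsper2 was 37.7 ± 5.95% and that of Catsper3 36.4 ± 1.74%, while Catsper1 stayed at 4.85 ± 0.45%. In knockout RNA-seq the share of Catsper2 ran from 39.8 to 57.4%, all below its control range of 58.2 to 62.9%, and Catsper3 from 20.5 to 32.2%, all above its control range of 18.0 to 19.7%. On knockout polysomes Catsper1 held 5.17 to 10.5%, overlapping its control range of 4.42 to 5.32%. Shares within a library sum to a whole, so a lower share of one gene raises the others, and they were not tested.

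**Figure D5:**
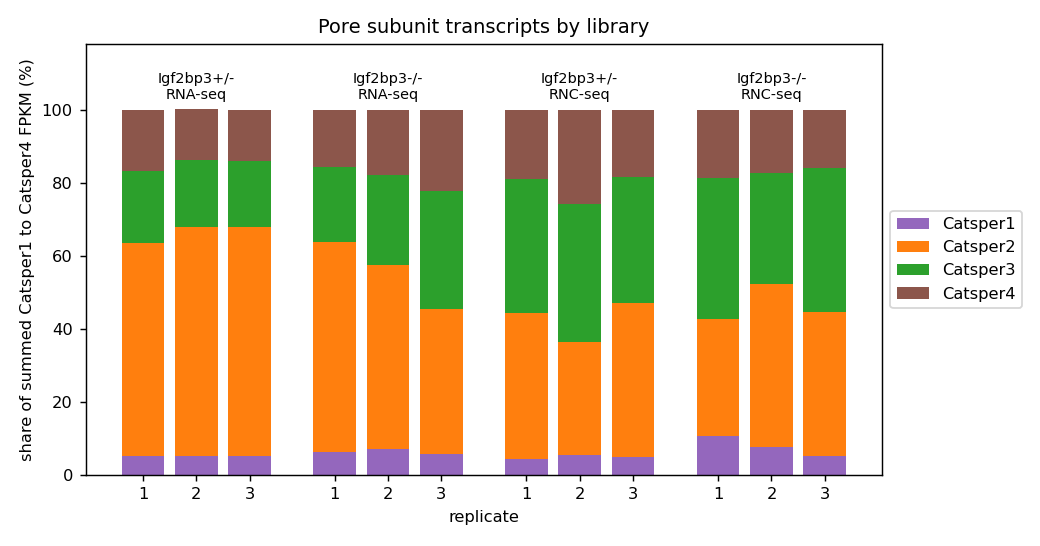
Share (percent) of the summed FPKM of Catsper1 to Catsper4 held by each gene, with a stacked bar for each of the 12 libraries, by group and replicate. Catsper2 (orange) holds 58.2 to 62.9% of the sum in the control RNA-seq bars and 31.0 to 44.7% in the RNC-seq bars, with Catsper3 (green) taking 30.4 to 39.5% on polysomes.

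Within the gamma pair Catsperg2 was the larger throughout. It held 68.4 ± 2.29% of the summed FPKM of the pair in control RNA-seq, 68.3 ± 0.72% in knockout RNA-seq, 73.7 ± 2.58% on control polysomes and 70.2 ± 0.51% on knockout polysomes. Its level was 1.98 to 3.10 times that of Catsperg1 over the 12 libraries. Since the copies share much of their sequence, this balance depends on how reads were divided between them.

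Further genes of the complex were taken from a list of 8, of which 7 were in the table. These were Catspere1 and Catspere2 (copies of the epsilon canopy gene), Catsperz (the partner of Efcab9), Tmem262 and Slco6c1 (further membrane components). C2cd6 (needed for the complex to reach the flagellum) and Trim69 completed them. GENCODE M21 lists Catspere1 as an unprocessed pseudogene and Catspere2 as coding, while the deposited symbols are Catspere and Gm16432. In control RNA-seq Catspere1 was at 13.97 and Catspere2 at 5.158 FPKM, and which copy supplies the epsilon subunit was not tested. None of the 7 passed for genotype in limma, and 2 of 7 in RNA-seq (both higher, beside 10.4% of all genes), 0 in RNC-seq and 0 in TE had an unadjusted p under 0.05. In RNA-seq Catsperz (log2 change 0.37 ± 0.11, limma adjusted p = 0.202), Slco6c1 (0.27 ± 0.10, adjusted p = 0.255) and Trim69 (0.18 ± 0.09, adjusted p = 0.381) were higher in the knockout without overlap, as for 14.1% of all genes.

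In control spermatids 3 of the 7 passed higher on polysomes and 2 lower, beside 18.2% and 25.2% of all genes. Tmem262 (loading 1.42 ± 0.18, limma adjusted p = 0.000478) and Catsperz (1.08 ± 0.16, adjusted p = 0.00093) are short, with 348 and 582 coding bases, and Catspere2 (0.60 ± 0.19, adjusted p = 0.0334) has 2325. C2cd6 (-0.77 ± 0.17, adjusted p = 0.00672) and Catspere1 (-0.73 ± 0.22, adjusted p = 0.0280) were lower. In the knockout Tmem262 (1.39 ± 0.17) and Catsperz (0.73 ± 0.16) passed higher and C2cd6 (-0.75 ± 0.16) and Slco6c1 (-0.66 ± 0.16) lower, where 10.2% and 11% of all genes did. Catsperz shares 46.5% of its exonic bases with Kcnk4 on the same strand, and Catspere1 and Catspere2 are copies at 93.1% identity, so these 3 levels are uncertain.

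Genes of sperm calcium signalling and flagellar ion transport gave a list of 16, of which 15 were tested and Hvcn1, the proton channel, fell below the filter. None passed for genotype in limma, and unadjusted p-values under 0.05 were held by 6 in RNA-seq (5 higher and 1 lower, beside 10.4% and 5.32% of all genes), 1 in RNC-seq (higher, beside 5.36%) and 0 in TE. In control spermatids 3 passed higher on polysomes (18.2% of all genes), among them Calm3 (0.66 ± 0.13), which encodes the calcium sensor calmodulin, and Ppp3r2 (0.62 ± 0.13), which encodes a calcineurin subunit. Lower were 6 (25.2% of all genes): Atp2b4 (-2.13 ± 0.36), the calcium export pump, Slc9c1 (-1.39 ± 0.18), the sperm sodium-proton exchanger, Adcy10 (-1.31 ± 0.14), the soluble adenylyl cyclase, Ppp3cc (-0.70 ± 0.12), Cabyr (-0.48 ± 0.13) and Abhd2 (-0.40 ± 0.12), the progesterone-responsive lipase. In the knockout Calm3 passed higher (0.59 ± 0.16), and Slc9c1 (-1.26 ± 0.18), Atp2b4 (-1.11 ± 0.35) and Adcy10 (-0.77 ± 0.23) lower, beside 10.2% and 11% of all genes.

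As a description, each member was set against the mean of the 9 profiles over the 12 libraries, each centred on its own mean of log2 values. Catsperd followed that mean most closely (Pearson r = 0.933), then Catsperg1 (0.927), Catsperg2 (0.866), Catsperb (0.857) and Catsper2 (0.823), while Catsper1 (0.576) and Catsper4 (0.521) followed it less, and Catsper3 (-0.26) and Efcab9 (-0.476) ran against it. Outside the members, the closest of 11380 genes were Usp3 (0.985), Snw1 (0.978), Efhb (0.974), Dis3 (0.970) and Dsg1a (0.969). These values share the libraries and mostly follow the step from RNA-seq to RNC-seq. Each member is itself part of that mean and the outside genes are not, so their r values do not compare directly.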

How the data were processed

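Round spermatids sorted from testes of Igf2bp3+/- and Igf2bp3-/- mice were measured by RNA-seq and RNC-seq in 3 libraries a group. The authors deposited 1 table of FPKM per gene symbol, in which the columns named WT are the Igf2bp3+/- libraries by the labels; per the submitters' processing notes and the methods, reads were trimmed with Trim Galore 0.6.6, aligned with HISAT2 to GRCm38 and quantified with StringTie 2.1.7. Whether strand was used, which annotation was used and how multiply mapped reads were treated is not given in the sources used here, and neither is the depth of each library; raw counts were not used here. The summed FPKM was 459800 to 624800 a library. After 25 date-like symbols (0.0995% of the summed FPKM) were left out, 28643 symbols remained.

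The 9 members and the lists of other genes and markers were chosen with earlier results of these data known. The text names all members, list genes that pass or serve as examples, overlapping or copied genes, Igf2bp3 and the 5 genes most like the members; 1 list gene that passed is counted but not reported here by name. Values were tested as log2(FPKM + 0.1), where folds of low genes are understated, for genes with a mean FPKM above 0.1 (in both assays for TE and loading). Tests were limma 3.58.1 in R 4.3.3 with an intensity trend, two-sided, with Benjamini-Hochberg adjustment over all genes tested and a limit of 0.05, within each assay for genotype, within each genotype for loading and as an interaction for TE. The script was tested on simulated data. The study's own count test was not repeated, since it needs counts. Copies were found with BLAST+ 2.17.0 against GENCODE M21 transcripts, and the epsilon genes were matched through older symbols. Alternatives changed the pseudocount, filter, scaling, variance model, library weights, libraries, replicate block and length trend.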

Additional observations from a re-analysis of the deposited data

How the results depend on the processing

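For genotype in RNA-seq, RNC-seq and TE the number of members called was 0 under every alternative run. For loading in Igf2bp3+/- it was 8 and ran from 6 to 8 under the other settings and from 4 to 6 with a replicate left out; in Igf2bp3-/- it was 4, ran from 3 to 6 under the other settings and from 0 to 5 with a replicate left out. Of 756 recomputed member changes 680 kept their direction and their side of the limit, 26 no longer passed, 6 came to pass and 44 turned sign, all 44 of changes that had not passed; the cause was not tested.

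Those that turned sign were these. By quantile normalization, Catsperb in RNA-seq was -0.0119, Catsperd and Catsperg2 in RNC-seq were -0.11 and -0.11, and Catsper4 loading in Igf2bp3+/- was -0.00041. By median centring, Catsperd was -0.0881 in RNC-seq and -0.0848 in TE, and Catsperg2 -0.0966 and -0.0752. By library weights, Catsperg2 was 0.00129 in RNA-seq, -0.0707 in RNC-seq and -0.0539 in TE, and Catsperd -0.0676 in RNC-seq and -0.0283 in TE. With the length trend removed, Catsperd, Catsperg1 and Catsperg2 were 0.0661, 0.119 and 0.109 in RNA-seq, Catsperg2 was -0.0355 in RNC-seq and -0.153 in TE, and Catsperd -0.0445 in TE.

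With a library or replicate left out in turn, the ranges that crossed 0 were, in RNA-seq, -0.0501 to 0.0142 for Catsperd and -0.0779 to 0.0206 for Catsperg2; in RNC-seq, -0.11 to 0.15 for Catsperd, -0.14 to 0.19 for Catsperg2 and -0.0476 to 0.34 for Efcab9; in TE, -0.27 to 0.10 for Catsper3, -0.12 to 0.17 for Catsperd and -0.11 to 0.25 for Catsperg2; and for Catsper4 loading -0.0778 to 0.0911 in Igf2bp3+/- and -0.223 to 0.0196 in Igf2bp3-/-.

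All-gene counts moved by more than 1.5 times in several fits. In RNA-seq 52 genes passed, with 31 without the filter, 84 with library weights, 127 without the length trend and 9 to 33 with a library left out. In RNC-seq 22 passed, with 2 without the filter, 13 by median centring, 12 by quantiles, 1 without the intensity trend, 48 in a fit of all 12 libraries, 34 without the length trend and 0 to 12 with a library left out. In TE 1 passed and 0 to 2 did otherwise. For loading 7993 passed in Igf2bp3+/- (4805 to 6476 with a replicate left out) and 3890 in Igf2bp3-/- (2186 without the length trend, 4 to 3953 with a replicate left out).

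Deviations of same-numbered libraries of the 2 assays correlated at 0.126 to 0.205 in 4 of 6 pairs and at -0.104 and -0.0513 in the others (between genotypes at -0.08 to 0.24), so not every pair deviated together, and the numbers were not taken as pairs. With the replicate number as a block the members called were 8 for loading in Igf2bp3+/-, 3 in Igf2bp3-/- (Catsperd lost, adjusted p = 0.0653) and 0 for genotype in each assay and TE, and over all genes 4 passed in RNA-seq, 31 in RNC-seq and 0 in TE. With 3 libraries a group the RNC-seq changes had SE of 0.19 to 0.29. Even the Catsper1 change of 1.05 ± 0.28 did not pass (adjusted p = 0.543 in limma), so changes of several SE could be missed.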
